A study of Mus musculus with 6 samples.

Results

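The collagen genes of mouse embryonic fibroblasts were read on 6 Agilent 1-colour arrays made at day 8 of reprogramming. They were taken as every gene name on the array that consists of Col, a number, a and a number, which gave 43 names of 27376. The 43 genes were sorted by the kind of assembly their chains form, except that collagens of cartilage made a class of their own. This gave 7 fibrillar, 8 network, 8 basement membrane, 8 cartilage, 6 fibril-associated and 6 membrane-spanning, anchoring or other collagens. The cartilage class also holds fibrillar chains, among them Col2a1 and Col27a1. Every culture was infected with the factors abbreviated SKO, which the labels do not spell out. In this field the letters commonly mean Sox2, Klf4 and Oct4. The cultures additionally received Gadd45a (2 arrays), its negative mutant G39A (2 arrays) or the control Flag (2 arrays), and each group has 1 array numbered replicate 2 and 1 numbered replicate 1. Growth was in a serum medium with LIF, and the virus is not named in the labels. The labels leave unsaid whether replicates were separate cultures, and p-values therefore reflect the spread among the arrays, which may be technical.

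Collagens are secreted proteins whose chains wind around each other into a rope-like helix and then assemble outside the cell. Fibrillar collagens form the cables of skin, bone, tendon and embryonic mesenchyme, basement membrane collagens form sheets beneath epithelia and vessels, and fibril-associated collagens sit on the surface of the cables. Embryonic fibroblasts make types I, III, V and VI in quantity, and fibroblasts that are reprogrammed towards pluripotency pass through a loss of mesenchymal character.

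Signals are given as the scanner's background-subtracted intensity, scaled so that all arrays share a 75th percentile of 826.6, and are compared between arrays for 1 probe at a time. For each gene the probe with the highest mean signal was used. Of the 43 genes, 39 were tested, because their probe stood well above background throughout a group or throughout a replicate number. The other 4, Col13a1, Col25a1, Col4a3 and Col6a6, had a probe that was well above background on no array. Of the 39, 28 were well above background on all 6 arrays, and the remaining ones include genes that passed only through the arrays on which they were bright.

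The replicate numbers differed in more than their name. All replicate 2 arrays lay on 1 slide, the Gadd45a and Flag arrays of replicate 1 on another and the G39A array of replicate 1 on a further one, so replicate number and slide cannot be told apart. Pou5f1, which encodes Oct4, gave 4.65 on Gadd45a, 4.65 on G39A and 3.68 on Flag in replicate 2 and was not well above background there, against 4971, 5522 and 3835 in replicate 1, so it was at least 228-fold lower in replicate 2. If the O of SKO is this gene and its probe reads the introduced copy, which was not tested, the replicate 2 arrays go against their label. Sox2 gave 16.4, 15.6 and 22.5 on Gadd45a, G39A and Flag in replicate 2, where 1 array was above background. In replicate 1 it gave 8.27, 10.9 and 8.36, with no array above background. By the same reading, the replicate 1 arrays would go against the S of their label. Group differences are therefore given for each number by itself. Cdh1, the epithelial cadherin that rises when fibroblasts turn epithelial, was like Pou5f1 not well above background in replicate 2. It gave 5.33, 4.94 and 3.96 there, against 353, 419 and 358 in replicate 1. Gadd45a itself gave 2061 on Gadd45a, 2269 on G39A and 2378 on Flag in replicate 2, against 540, 1210 and 1013 in replicate 1, so its probe was not brighter in the group labelled Gadd45a, and whether it reads the introduced copy was not tested.

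All 8 fibroblast markers were well above background on every replicate 2 array, and their summed signal was 542293 to 556297 there, against 358604 to 407974 in replicate 1, where 7 of the 8 were above background on every array. Of the 8, 6 were called higher, and Vim and S100a4 did not pass, although S100a4 was the largest part of both sums. Sums of this kind add signals of different probes and are weighted towards the brightest. Smooth muscle markers summed to 399655 to 436336 in replicate 2, against 65678 to 75403 in replicate 1, and all 4 were above background on every array. Chondrocyte markers, of which Matn1 was never above background, summed to 1389 to 2401 in replicate 2, against 446 to 561 in replicate 1. Of the 6 tested, 4 were called higher, among them Sox9 and Comp, and 2 lower, Hapln1 by -2.51 and Lect1 by at least 5.04-fold. Macrophage markers, of which Ptprc was never above background, summed to 5500 to 8891 in replicate 2, against 1825 to 1892 in replicate 1. Lyz2 was higher by 2.85, while Cd68 was lower by -0.89 and Cd14 did not pass. Epithelial markers summed to 1772 to 3074 in replicate 2, against 5031 to 5533 in replicate 1, with Esrp1 never above background. Cdh1, Epcam and Krt8 were called lower, while Krt18 and Krt19 did not pass, at 0.35 and -0.02. Osteoblast markers summed to 1277 to 1379 in replicate 2, against 3537 to 4423 in replicate 1, with Ibsp never above background. Sp7, Bglap and Alpl were called lower, while Runx2 did not pass, at 0.04. Pluripotency markers summed to 258 to 278 in replicate 2, against 4293 to 5906 in replicate 1, with Esrrb never above background. Most of the replicate 1 sum was Pou5f1, at 4971, 5522 and 3835, and most of the replicate 2 sum was Dppa5a, which did not pass at 0.24. Zfp42 was at least 11.1-fold lower in replicate 2, and Nanog and Sox2 were not tested. Endothelial markers summed to 621 to 1332 in replicate 2, against 956 to 974 in replicate 1, with Pecam1 and Cdh5 above background on no array. Within that sum, Tek was lower in replicate 2 by -5.08, where 1 array was above background, Emcn was higher by 2.09 and Kdr did not pass. The part of these cell types in the collagen differences was not tested, and in such bulk RNA fewer cells of a type cannot be told apart from less RNA per cell.

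More collagen genes were higher than lower on the replicate 2 arrays, and the genes of the fibrillar class were higher without exception. Col2a1, a fibrillar chain placed in the cartilage class, was lower. At a limma adjusted p under 0.05, 28 of the 39 tested genes differed between replicate 2 and replicate 1, or 71.8%, where 58.1% of all 16350 genes tested did. Of the 39, 21 were higher in replicate 2, against 33.1% of all genes, and 7 were lower, against 25.0% of all genes. The same 21 and 7 genes had groups that did not overlap, a state reached by 40.1% of all genes upwards and 28.9% downwards. At least 2-fold and called, 17 collagens were higher, against 11.8% of all genes, and 6 were lower, against 12.9%. The 17 become 16 when genes dim on all arrays of a replicate number are set at their bound. The median difference of the 39 was 0.83 (log2, replicate 2 minus replicate 1), beside 0.11 for all genes, and 0.65 with such dim genes at their bound. Within the groups it was 0.55 in Gadd45a, 0.76 in G39A and 0.92 in Flag. Among the 28 collagens above background on all 6 arrays, 14 were called higher and 5 lower in replicate 2, where 36.2% and 24.8% of all genes so detected were, and their median was 0.49 beside 0.11 for those genes.

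**Figure D1:**
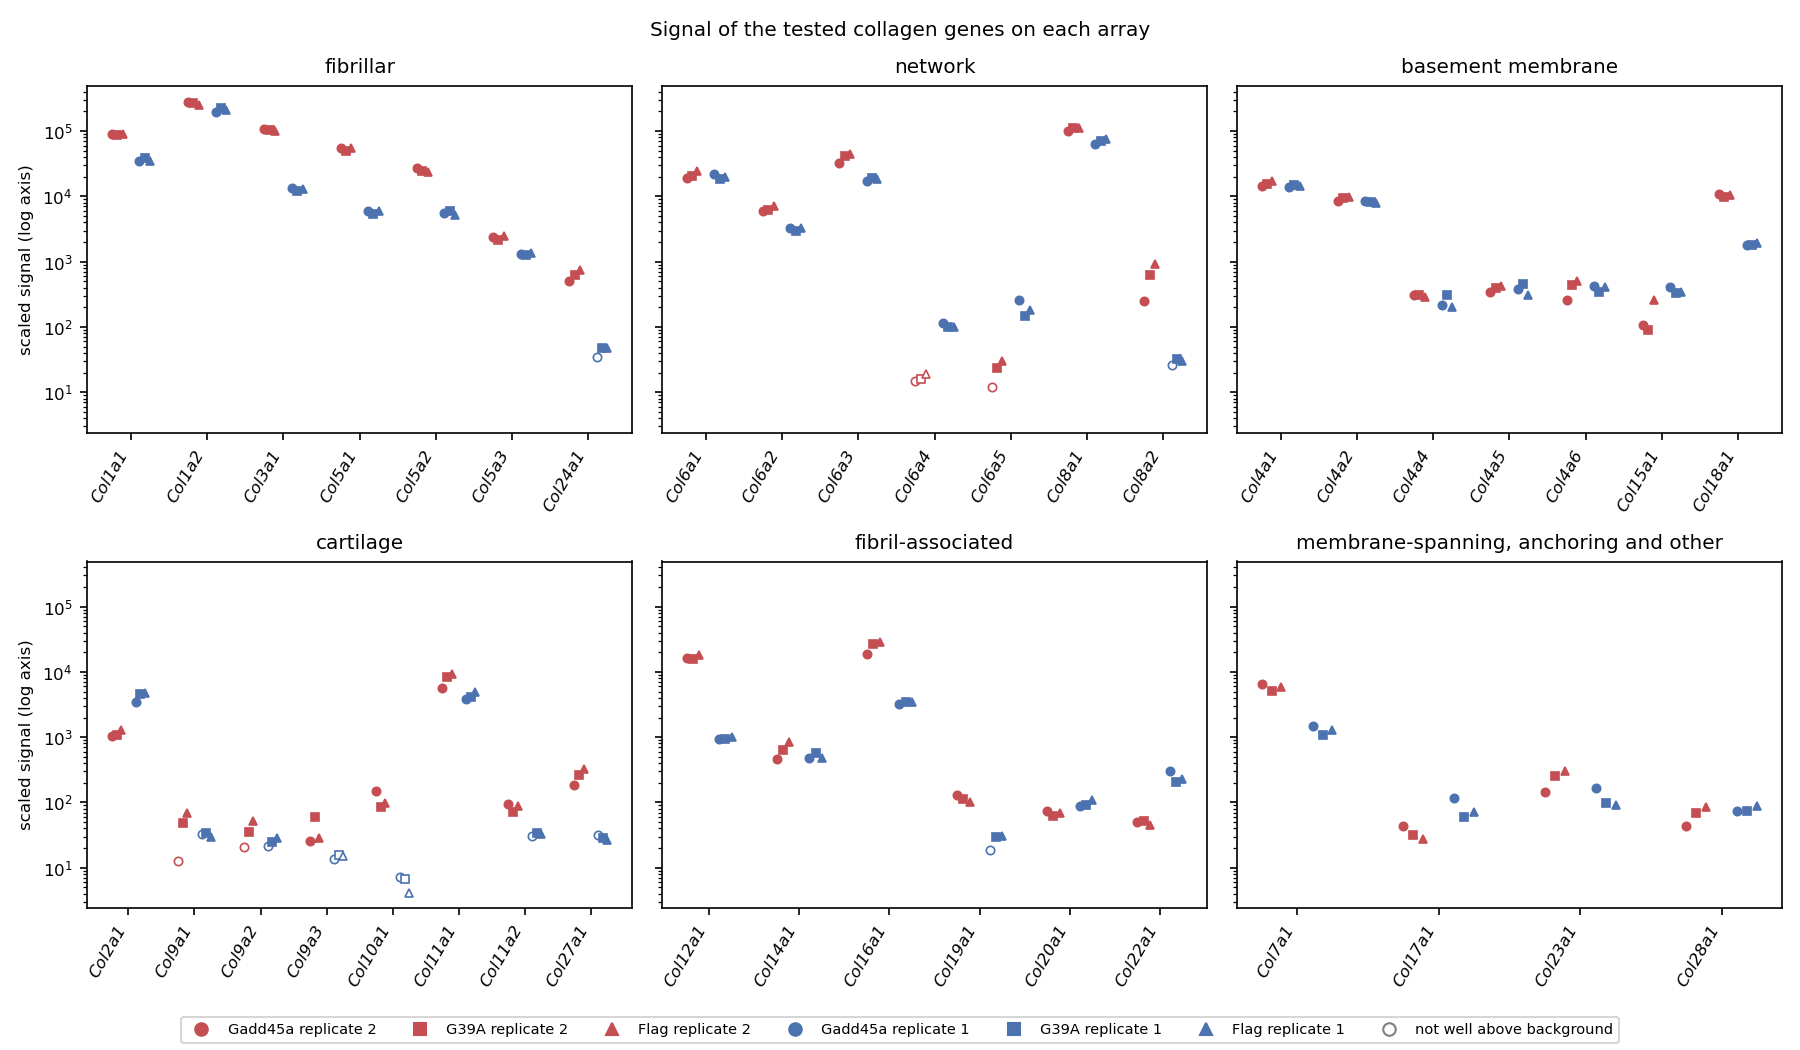
Scaled signal (log axis) of each tested collagen gene on every array, replicate 2 left of replicate 1, by class, with arrays not well above background drawn open. Levels are to be compared within a gene only. Genes of the fibrillar class show the replicate 2 points above the replicate 1 points throughout.

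All 7 collagens of the fibrillar class were higher in replicate 2, with a median of 2.18. Col3a1, the chain of type III collagen in pliable tissues, gave 106993, 103161 and 99971 on the Gadd45a, G39A and Flag arrays of replicate 2, against 13271, 12091 and 13140 in replicate 1. Its signal was thus 8.06-fold higher, a difference of 3.01 ± 0.08 (log2, SE, adjusted p = 0.000106 from limma), and the arrays of each number lay close together. Col5a1, a chain of the type V collagen that nucleates fibrils, gave 55816, 49125 and 54541 in replicate 2, against 6009, 5389 and 5982 in replicate 1, or 3.20 ± 0.07. Its partner Col5a2 gave 27224, 24259 and 23989 in replicate 2, against 5552, 5992 and 5163 in replicate 1, or 2.18 ± 0.09. Col5a3, the third type V chain, differed less, with 2410, 2173 and 2440 in replicate 2, against 1301, 1279 and 1378 in replicate 1, or 0.83 ± 0.08 (adjusted p = 0.00169). The 3 type V chains thus differed in size but not in direction, and none had overlapping arrays.

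Type I collagen, the main protein of bone and tendon, is made of chains from Col1a1 and Col1a2. Col1a1 gave 90632, 88644 and 89591 in replicate 2, against 35335, 38462 and 34525 in replicate 1, or 1.31 ± 0.08 (adjusted p = 0.000573). Col1a2 gave 281492, 271008 and 249776 in replicate 2, against 198163, 228073 and 211102 in replicate 1, or 0.33 ± 0.09 (adjusted p = 0.0404). The Col1a2 difference was the smallest of the class, fell to 0.18 after quantile normalization and 0.19 in the deposited value table, and lost its call there. It also lost its call when any group's array was left out, at 0.25 without either Gadd45a array, 0.37 without either G39A array and 0.38 without either Flag array. Col24a1, a less common fibrillar chain known from developing bone and cornea, gave 507, 628 and 752 in replicate 2, against 34.5, 48.0 and 48.0 in replicate 1, of which the Gadd45a array was not well above background. Its difference was 3.85 ± 0.09 (adjusted p = 0.000103).

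**Figure D2:**
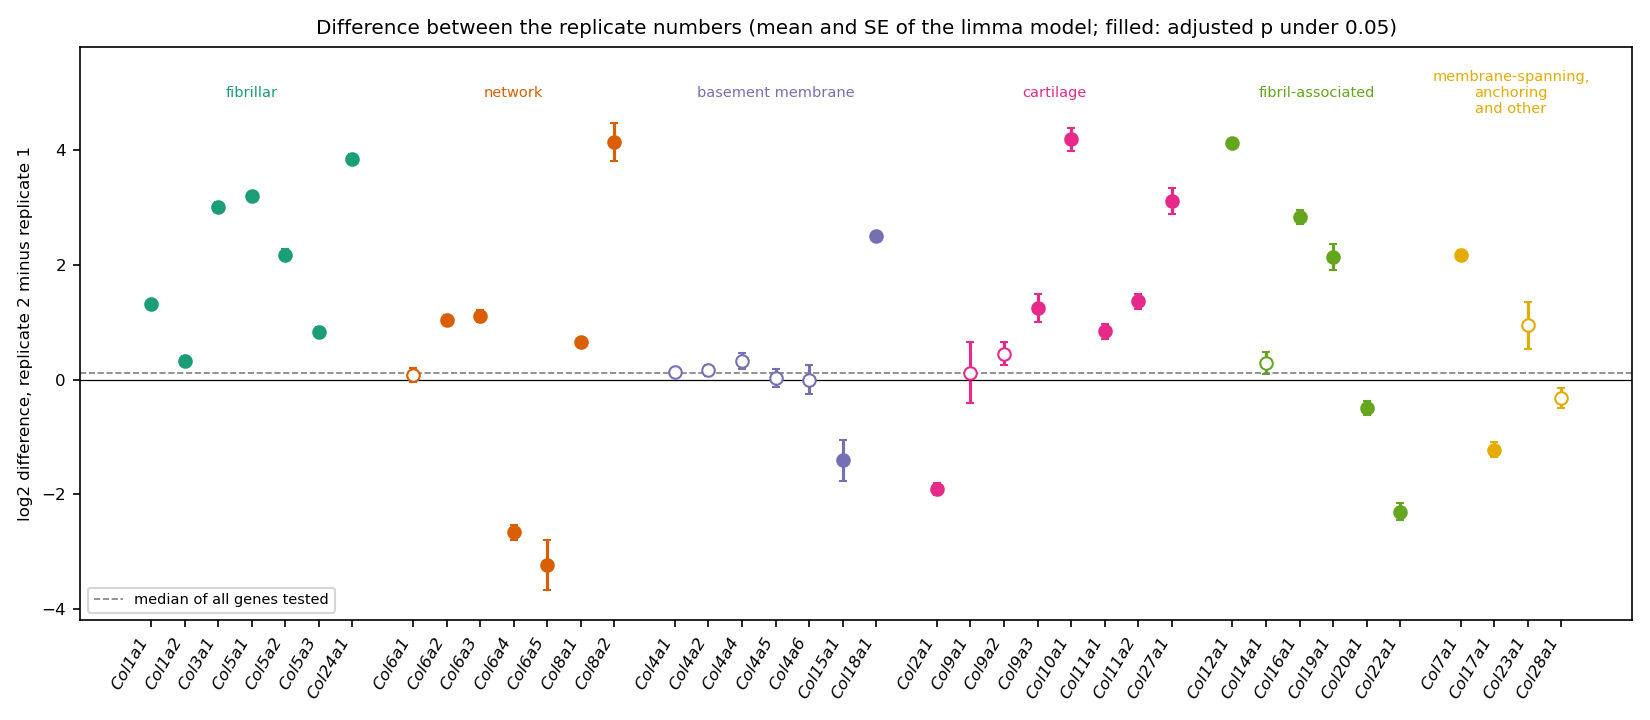
Log2 difference of each tested collagen gene, replicate 2 minus replicate 1, with its standard error, by class. Filled points passed an adjusted p under 0.05. All 7 genes of the fibrillar class lie above 0, between 0.33 and 3.85, while the tested type IV genes of the basement membrane lie near 0. The points of Col10a1, Col9a3 and Col6a4 rest on dim arrays and show no more than a bound.

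The promoters of Col1a2 and Col3a1, both higher in replicate 2 but by unlike amounts, are shown as the 300 bases around the RefSeq start (build GRCm38.p6). Capitals mark 3 motifs on either strand, the CCAAT box (CCAAT), the TATA box (TATAAA) and the GC box (GGGCGG).
Col1a2, chr6:4505368-4505667, plus strand: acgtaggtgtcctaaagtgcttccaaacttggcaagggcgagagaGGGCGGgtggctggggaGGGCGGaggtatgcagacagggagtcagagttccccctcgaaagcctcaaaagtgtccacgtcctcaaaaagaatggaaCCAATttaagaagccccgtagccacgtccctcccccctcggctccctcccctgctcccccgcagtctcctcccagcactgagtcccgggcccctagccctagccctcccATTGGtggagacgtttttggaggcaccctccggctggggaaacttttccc
Col3a1, chr1:45311288-45311587, plus strand: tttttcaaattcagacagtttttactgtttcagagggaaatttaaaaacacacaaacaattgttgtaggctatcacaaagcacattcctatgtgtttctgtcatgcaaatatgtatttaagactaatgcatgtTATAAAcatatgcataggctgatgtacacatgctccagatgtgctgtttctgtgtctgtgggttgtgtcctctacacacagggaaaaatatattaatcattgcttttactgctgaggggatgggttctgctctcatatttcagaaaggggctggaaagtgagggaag
Col1a2 held 2 CCAAT boxes and 2 GC boxes, and Col3a1 held 1 TATA box. Of the 35 collagen genes with a promoter in the table, 13 held a CCAAT box, 5 a TATA box and 22 a GC box, where 37.4%, 13.6% and 35.7% of all 32851 promoters did. A collagen gene was counted if any of its promoters held the motif, while all promoters were counted singly. The 2 measures are therefore unlike, and no excess is read from them. A match is a run of letters and not a shown binding site.

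Network-forming collagens split by chain. Of the 7 tested, 4 were higher in replicate 2, 2 were lower (1 of them Col6a4, whose probes disagree) and 1 did not pass, with a median of 0.65. Col6a1, Col6a2 and Col6a3 encode the chains of the beaded filaments of type VI collagen. Col6a3 gave 32985, 41276 and 45286 in replicate 2, against 17324, 19108 and 18507 in replicate 1, or 1.11 ± 0.10 (adjusted p = 0.00164). Col6a2 gave 6033, 6288 and 7197 in replicate 2, against 3258, 2979 and 3232 in replicate 1, or 1.04 ± 0.09. Col6a1 overlapped between the numbers, with 19433, 20651 and 24228 in replicate 2, against 21937, 18728 and 20135 in replicate 1, and its 0.08 ± 0.12 (adjusted p = 0.596) turned to -0.12 after quantile normalization. So 2 chains of this trimer passed the test and the other was not separable from the spread of its arrays.

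Col6a5, one of the later described alternative chains of type VI, was lower in replicate 2, at 12, 23.9 and 29.8 with the Gadd45a array not above background, against 263, 146 and 183 in replicate 1, or -3.23 ± 0.43 (adjusted p = 0.00459). With another background correction (normexp) the Col6a5 difference was -1.58. Col6a4, another of these chains, had a probe that was dim on all replicate 2 arrays, at 15.0, 15.7 and 18.7, against 114, 98.5 and 98.4 in replicate 1, so it was at least 4.89-fold lower. Its other probe, 60 bases starting at base 2475 of the transcript rather than 7117, went the opposite way, with 36.9, 72.8 and 36.4 in replicate 2, against 7.32, 13.0 and 11.7 in replicate 1, where it was dim, or at least 2.002-fold higher. No direction for Col6a4 is therefore given here, and the mean of its probes, -0.25, did not pass the test.

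Type VIII collagen makes hexagonal lattices, best known from the membrane behind the cornea and from vessel walls. Col8a1 gave 100902, 111872 and 113318 in replicate 2, against 63390, 70085 and 75131 in replicate 1, or 0.65 ± 0.08 (adjusted p = 0.00315). Col8a2 differed far more, with 251, 623 and 916 in replicate 2, against 25.8, 32.8 and 30.6 in replicate 1, the first of these not above background. Its 4.14 ± 0.33 (adjusted p = 0.00113) was 2.68 with normexp, and its replicate 2 arrays all stood above those of replicate 1.

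Basement membrane collagens differed least as a class, with a median of 0.13 and 5 of 7 genes not passing. Col4a1 and Col4a2 encode the chains of the ubiquitous type IV network and are read outwards from a shared start region. Col4a1 gave 14198, 15706 and 17413 in replicate 2, against 13771, 14711 and 14642 in replicate 1, or 0.13 ± 0.08 (adjusted p = 0.251). Col4a2 gave 8367, 9541 and 9948 in replicate 2, against 8646, 8287 and 7949 in replicate 1, or 0.16 ± 0.10 (adjusted p = 0.253). The numbers overlapped for both genes, and Col4a1 turned to -0.05 after quantile normalization, while the mean of its probes passed at 0.33. Of the other type IV genes, whose chains include those of kidney, lung and eye networks, Col4a3 was not tested, and Col4a4, Col4a5 and Col4a6 gave between 205 and 510 on all arrays and did not pass either. Col4a4 differed by 0.33 ± 0.14, Col4a5 by 0.03 ± 0.16 and Col4a6 by 0.00 ± 0.25. Col4a4 passed at 0.50 without either G39A array.

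RefSeq places the starts of Col4a1 and Col4a2 21 bases apart on opposite strands, and those of Col4a6 and Col4a5 1343 bases apart. The Col4a2 window, shown because it also holds the Col4a1 start, has 1 CCAAT box and 3 GC boxes in capitals.
Col4a2, chr8:11312555-11312854, plus strand, GRCm38.p6: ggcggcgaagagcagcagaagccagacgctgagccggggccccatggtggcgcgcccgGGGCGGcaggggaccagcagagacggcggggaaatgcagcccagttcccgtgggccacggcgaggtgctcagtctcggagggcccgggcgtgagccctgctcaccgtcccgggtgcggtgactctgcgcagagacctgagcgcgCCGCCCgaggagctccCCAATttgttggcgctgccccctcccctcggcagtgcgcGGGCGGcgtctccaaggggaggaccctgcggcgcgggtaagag
Both of these outward-read pairs had small differences on both sides, 0.13 and 0.16 for Col4a1 and Col4a2, and 0.00 and 0.03 for Col4a6 and Col4a5. A further outward-read pair, Col4a4 and Col4a3, could not be compared. Col4a4 differed by 0.33, and Col4a3 was well above background on no array. Of 8 pairs of collagen genes that neighbour each other in RefSeq, some others were less alike. Col3a1 and Col5a2 differed by 3.01 and 2.18, but Col6a2 and Col6a1 by 1.04 and 0.08, and Col9a1 and Col19a1 by 0.12 and 2.14. Col6a5 and Col6a4 differed by -3.23 and -2.66, the second from 1 of 2 probes that disagree. Col6a6, beside Col6a5, was not tested.

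Col18a1 and Col15a1 encode the multiplexin collagens, heparan sulphate or chondroitin sulphate proteoglycans of basement membranes whose ends can be cleaved to the anti-angiogenic fragments endostatin and restin. These close relatives moved apart. Col18a1 gave 10812, 9949 and 10410 in replicate 2, against 1816, 1777 and 1931 in replicate 1, or 2.50 ± 0.08 (adjusted p = 0.000136), and a further probe gave 2.56. Col15a1 was lower, with 106, 88.9 and 260 in replicate 2, against 410, 330 and 339 in replicate 1, or -1.41 ± 0.36 (adjusted p = 0.0307). The Col15a1 call was lost without either Gadd45a array, at -1.14, and without either G39A array, at -1.17, and its Flag array of replicate 2 stood closest to replicate 1.

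Among the cartilage collagens, 5 of 8 were higher in replicate 2, 1 was lower and 2 did not pass, with a median of 1.05, or 0.73 with dim genes at their bound. Of those that were higher, Col10a1 and Col9a3 were tested only because their replicate 2 arrays were bright, so their calls add no support. The one that was lower is the gene of type II collagen, the main fibril of cartilage. Col2a1 gave 1038, 1072 and 1265 in replicate 2, against 3417, 4530 and 4812 in replicate 1, or -1.91 ± 0.10 (adjusted p = 0.000399), so it was 3.75-fold lower. Among the chondrocyte markers, Hapln1 and Lect1 were also lower and 4 were higher. Its 2 tested probes overlap by 40 bases, shown in capitals (mm9, minus strand).
Col2a1 probe of highest mean signal, chr15:97806485-97806544: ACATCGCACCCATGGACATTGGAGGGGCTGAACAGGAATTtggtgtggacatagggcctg
Col2a1 overlapping probe, chr15:97806505-97806564: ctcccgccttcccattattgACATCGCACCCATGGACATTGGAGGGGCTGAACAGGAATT
The overlapping probe gave 532, 511 and 642 in replicate 2, against 3345, 4587 and 4761 in replicate 1, or -2.90. Both probes had replicate 1 above replicate 2 on every array, with differences of unlike size. A further Col2a1 probe, near background and not tested, gave 35.1, 21.9 and 19.4 in replicate 2, against 7.96, 4.43 and 4.56 in replicate 1.

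Col11a1, a chain that limits the width of cartilage fibrils and also occurs in other mesenchyme, was higher, with 5692, 8374 and 9230 in replicate 2, against 3881, 4063 and 4863 in replicate 1, or 0.84 ± 0.13 (adjusted p = 0.00645). Its partner Col11a2 gave 95.8, 70.7 and 88.4 in replicate 2, against 30.9, 33.7 and 33.0 in replicate 1, or 1.37 ± 0.13. Col27a1, a fibrillar chain of growth cartilage, gave 182, 266 and 320 in replicate 2, against 31.7, 28.4 and 26.3 in replicate 1, or 3.12 ± 0.23. The Gadd45a array of replicate 1 was not above background for Col11a2 and Col27a1, and with normexp their differences were 0.68 and 1.83. Col10a1, the marker of hypertrophic chondrocytes, gave 150, 85.2 and 96.7 in replicate 2, against 7.24, 6.76 and 4.14 in replicate 1. No replicate 1 array was above background, so it was at least 4.67-fold higher. The limma adjusted p of 0.000308 belongs to its fitted difference of 4.19, which rests on those dim arrays. Type IX collagen, which coats cartilage fibrils, was near the lower limit of detection. Col9a3 gave 25.5, 60.3 and 29.0 in replicate 2, against 13.8, 15.9 and 15.1 in replicate 1, all dim, or at least 1.54-fold higher. Its limma adjusted p of 0.014 likewise belongs to the fitted difference of 1.25. Col9a1 and Col9a2 differed by 0.12 ± 0.53 and 0.45 ± 0.20 and did not pass, although without either Gadd45a array they passed at 0.86 and 0.69. Col9a1 turned to -0.07 without either G39A array and to -0.42 without either Flag array.

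Fibril-associated collagens held the called gene with the smallest adjusted p of the family. Of the 6, 3 were higher in replicate 2, 2 were lower and 1 did not pass, with a median of 1.22. Col12a1, which bridges type I fibrils in tendon and dense connective tissue, gave 16512, 15670 and 18156 in replicate 2, against 950, 937 and 1012 in replicate 1. It was 17.3-fold higher, a difference of 4.12 ± 0.08 (adjusted p = 8.54e-05), and another tested probe gave 4.29. A further Col12a1 probe, not above background on any replicate 1 array, was at least 2.64-fold higher. Col14a1, its close relative, did not follow, with 459, 638 and 853 in replicate 2, against 478, 582 and 488 in replicate 1, or 0.29 ± 0.19 (adjusted p = 0.257). Col16a1, found at cell-matrix contacts, gave 18952, 26377 and 28270 in replicate 2, against 3200, 3447 and 3478 in replicate 1, or 2.84 ± 0.12. Here all arrays of replicate 2 stood above all of replicate 1 by several-fold.

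Col19a1, known from muscle and nerve development, gave 128, 112 and 101 in replicate 2, against 19, 29.3 and 30.1 in replicate 1, or 2.14 ± 0.22 (adjusted p = 0.00232). The Gadd45a array of replicate 1 was not above background, and the difference was 0.99 with normexp. A further Col19a1 probe gave 0.82, and the mean of the probes, 1.48, did not pass. Col22a1, a collagen of tissue junctions such as the muscle-tendon border, was lower, with 50.5, 52.0 and 45.7 in replicate 2, against 304, 206 and 231 in replicate 1, or -2.30 ± 0.14 (adjusted p = 0.000549), and -1.24 with normexp. Col20a1 was lower by a small step, with 75, 61.1 and 68.7 in replicate 2, against 88.2, 90.7 and 108 in replicate 1, or -0.49 ± 0.12 (adjusted p = 0.0244). The Col20a1 call was lost without either G39A array, at -0.45, and without either Flag array, at -0.40, and also under quantile normalization, at -0.36, and with normexp, at -0.22.

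The remaining collagens anchor or span membranes. Col7a1, the anchoring fibril that ties skin epidermis to dermis, gave 6535, 5089 and 5829 in replicate 2, against 1486, 1080 and 1289 in replicate 1, or 2.18 ± 0.08 (adjusted p = 0.000157). Col17a1, a transmembrane collagen of epithelial hemidesmosomes, was lower, with 43.9, 31.8 and 27.5 in replicate 2, against 116, 59.4 and 71.2 in replicate 1, or -1.22 ± 0.13 (adjusted p = 0.00253), and -0.48 with normexp. These partners of the skin's attachment thus moved in opposite directions. Col17a1 went the same way as the epithelial markers Cdh1, Epcam and Krt8, while Krt18 and Krt19 did not pass. Col23a1, another transmembrane collagen, overlapped between the numbers, with 146, 252 and 304 in replicate 2, against 168, 99.6 and 92.6 in replicate 1, or 0.95 ± 0.41 (adjusted p = 0.115), and passed at 1.53 without either Gadd45a array. Col28a1 differed by -0.32 ± 0.17 and did not pass.

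Probes of the same gene mostly had the same sign. Of 26 other tested probes in 19 of the genes, 23 had the sign of the probe used, and the exceptions were the Col6a4 probe above and both other Col4a6 probes, at 0.11 and -0.10. Sizes varied more. The Col1a1 probe used starts at base 4602 of the transcript (chr11:94813075-94813134, mm9) and gave 1.31, while probes starting at bases 228 and 3909 gave 3.03 and 2.84. Likewise the Col1a2 probe at base 4218 gave 0.33 and that at base 1793 gave 1.35, and the Col3a1 probe at base 4601 gave 3.01 where those at bases 350 and 2541 gave 4.14 and 4.08. In each of these 3 genes the brightest probe had the smallest difference, and no spot was marked saturated on any array. The 2 Col5a1 probes gave 3.20 each.

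**Figure D3:**
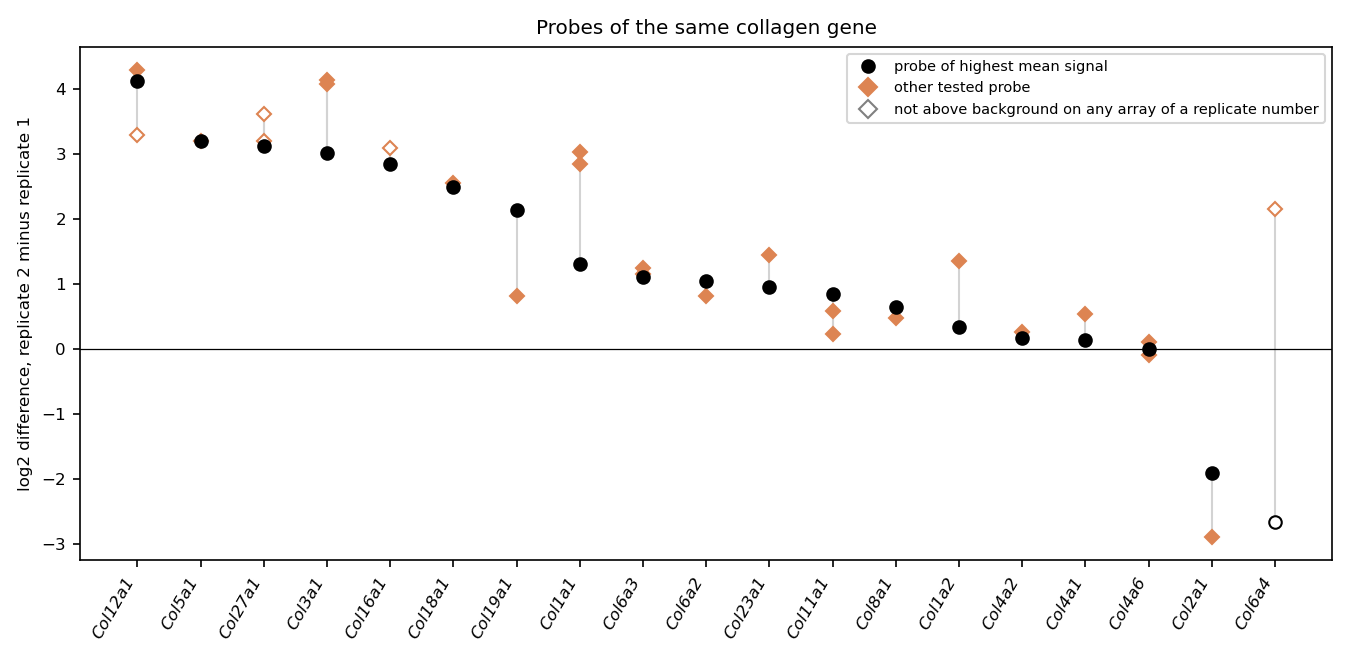
Log2 difference, replicate 2 minus replicate 1, of the probe used (black circles) and of other tested probes (diamonds) in the 19 genes that have more than 1 tested probe. Open symbols are probes not above background on any array of a replicate number, whose difference is only bounded, such as both Col6a4 probes on either side of 0. The 3 Col1a1 probes span 1.31 to 3.03.

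Genes that modify, fold, export and cross-link collagen chains were also mostly higher in replicate 2. Of 36 listed, 35 were tested, with 28 higher, 4 lower and 3 not passing, and their median was 1.11 beside 0.11 for all genes. Loxl1, a lysyl oxidase that cross-links elastin and collagen, gave 32224, 34190 and 36482 in replicate 2, against 3922, 4093 and 4436 in replicate 1, or 3.05 ± 0.07. Lox, the founding enzyme of that family, differed by 2.35 ± 0.08, and Adamts2, which trims the amino-terminal propeptide of fibrillar collagens, by 2.76 ± 0.08. Creb3l1, a membrane-bound transcription factor that drives type I collagen genes in bone, gave 299, 228 and 261 in replicate 2, against 39.4, 29.7 and 26.7 in replicate 1, or 3.05 ± 0.11, and 1.79 with normexp. These 4 were the largest positive differences of the list with the scaling used.

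The 4 that were lower are relatives of such enzymes. Pcolce2, an enhancer of carboxy-terminal propeptide removal, gave 519, 518 and 449 in replicate 2, against 6910, 7845 and 6984 in replicate 1, or -3.87 ± 0.09. Adamts3, which trims procollagen II and is a relative of Adamts2, differed by -3.32 ± 0.12, and Loxl4 by -1.53 ± 0.12. Glt25d2, one of the enzymes that add galactose to collagen hydroxylysine, was dim in replicate 2 and at least 20.4-fold lower there. Leprel1, Leprel4 and Tll1 did not pass, at 0.10, 0.27 and 0.47, and Tll2 was not tested.

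Of 10 receptors and uptake genes for collagen, 6 were tested, with 4 higher, 1 lower and 1 not passing. Itga11, the integrin chain that binds fibrillar collagen on fibroblasts, gave 31688, 36058 and 41947 in replicate 2, against 1260, 977 and 1237 in replicate 1, or 4.98 ± 0.14 (adjusted p = 0.000113). Mrc2, the receptor that takes up collagen fragments, differed by 2.54 ± 0.10, Itga1 by 1.13 ± 0.11 and Ddr2, the discoidin receptor of mesenchymal cells, by 0.87 ± 0.09. Ddr1, its epithelial counterpart, was lower by -0.55 ± 0.10 (adjusted p = 0.0111), a call lost without either Gadd45a array, at -0.51, and without either Flag array, at -0.50. Itgb1, the beta chain shared by these integrins, differed by 0.16 ± 0.12 and did not pass. The genes Itga2, Itga10, Gp6 and Lair1 were not tested.

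**Figure D4:**
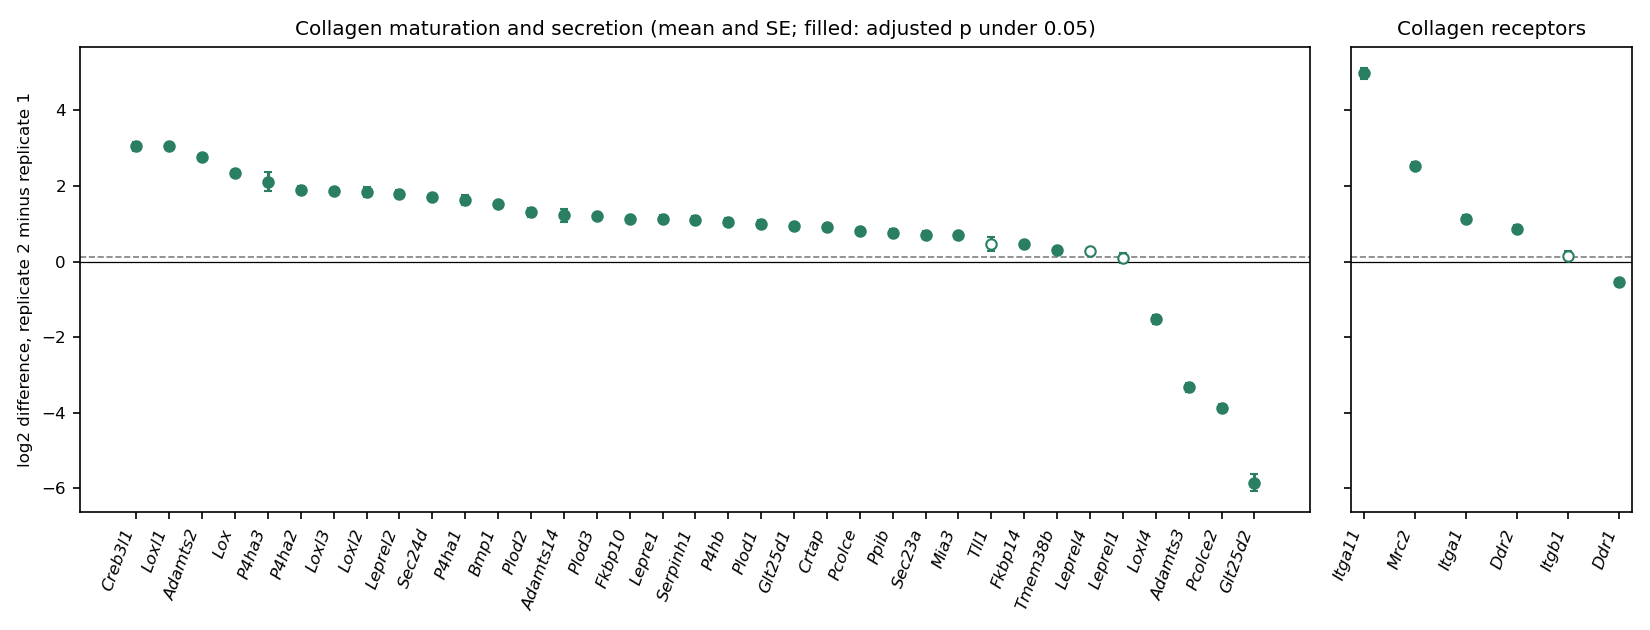
Log2 difference, replicate 2 minus replicate 1, with its standard error, for the tested genes of collagen maturation and secretion and for the collagen receptors. Filled points passed an adjusted p under 0.05. Itga11 lies highest, at 4.98, and Glt25d2 lowest, at -5.85, a fitted value that rests on dim replicate 2 arrays.

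Between the groups, which the study set out to compare at day 8, no collagen gene passed the test. With 2 arrays a group, limma called 0 of 39 collagens and 0.0% of all 16350 genes in Gadd45a minus Flag, in G39A minus Flag and in Gadd45a minus G39A. At an unadjusted p under 0.05 the count was again 0 collagens in each comparison, where 0.532%, 0.446% and 0.642% of all genes passed. Replicate number was left out of this fit, so the difference between the numbers counted as error. In Gadd45a minus Flag, the standard error of Col12a1 was 2.44 here and 0.09 once replicate number was fitted. For Col9a1 it was 0.66 and 0.65. The 0 calls of this fit therefore say little on whether the groups differ. A fit that includes replicate number is given further below. The median difference of the collagens was -0.11 in Gadd45a minus Flag, -0.09 in G39A minus Flag and -0.07 in Gadd45a minus G39A, beside -0.02, -0.02 and 0.00 for all genes. The median size of a difference was 0.29 in replicate 2 and 0.13 in replicate 1 for Gadd45a minus Flag, against 1.25 for replicate 2 minus replicate 1. The 2 comparisons with Flag share the Flag arrays, so their values are only set side by side.

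Col1a1, Col3a1 and Col5a1 differed little between the groups. In Gadd45a minus Flag, Col1a1 differed by 0.02 in replicate 2 and 0.03 in replicate 1, Col3a1 by 0.10 and 0.01, and Col5a1 by 0.03 and 0.01. Within replicate 2, 25 of the 39 collagens were lower and 14 higher on Gadd45a than on Flag, with a median of -0.25, where 49.6% of all genes were lower, with a median of 0.00. Within replicate 1 the split was 19 lower and 20 higher, with a median of 0.01, where 58.4% of all genes were lower, with a median of -0.04. On G39A, 31 were lower and 8 higher than on Flag in replicate 2, with a median of -0.17, where 50.2% of all genes were lower. In replicate 1, 22 were lower and 17 higher, with a median of -0.04, where 58.5% of all genes were lower, with a median of -0.05. For Gadd45a minus G39A the medians were -0.07 in replicate 2 and -0.04 in replicate 1, beside 0.00 and 0.01 for all genes. Each of these values rests on 1 array a side, and in replicate 1 the G39A array lay on a different slide from the others.

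The larger differences within replicate 2 were among dimmer genes. The 6 network collagens other than Col6a4, which was dim there, were lower on Gadd45a than on the Flag array of replicate 2, and lower on G39A than on that same Flag array. Col8a2 differed by -1.87 in replicate 2 and by -0.25 in replicate 1 between Gadd45a and Flag. Col9a1, Col9a2 and Col6a5 were not above background on the Gadd45a array of replicate 2, so their differences there, fitted at -2.44, -1.30 and -1.31, are not exact sizes and were -0.78, -0.31 and -0.24 with normexp. In replicate 1 these 3 genes differed by 0.13, -0.39 and 0.53, where the Gadd45a array was not above background for Col9a1 and Col9a2. Col15a1 was lower in replicate 2 on both, by -1.29 on Gadd45a and -1.55 on G39A, and differed by 0.28 and -0.04 in replicate 1. The Col8a2 and Col15a1 differences were thus smaller in size in replicate 1. For Col8a2 the Gadd45a array of replicate 1 was not above background. Its replicate 1 value is therefore no exact size and was -0.02 with normexp.

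Counts of collagens that kept a direction in both replicates are given beside the share of all genes, and few collagens did so by 1.5-fold or more. Gadd45a was higher than Flag in both for 9 of 39 collagens, or 23.1%, where 24.2% of all genes were, and lower in both for 14, or 35.9%, where 32.2% were. At 1.5-fold or more in both, Col10a1 and Col17a1 were higher on Gadd45a, 5.13% of the collagens where 0.685% of all genes were, and no collagen was lower, where 1.13% were. At that size no collagen kept its direction in G39A minus Flag, where 0.135% of all genes were higher and 0.679% lower, or in Gadd45a minus G39A, where 1.19% were higher and 0.722% lower. Col17a1 gave 43.9 on Gadd45a and 27.5 on Flag in replicate 2, and 116 on Gadd45a and 71.2 on Flag in replicate 1, or 0.68 and 0.70. Col10a1 differed by 0.64 and 0.81, of which the second rests on arrays not above background and was 0.02 after quantile normalization. With normexp, the Col17a1 differences were 0.29 and 0.41. G39A was lower than Flag in both replicates for 18 collagens, or 46.2%, where 28.3% of all genes were, and higher in both for 4, or 10.3%, where 19.6% were. Gadd45a was higher than G39A in both replicates for 9, or 23.1%, where 31.2% of all genes were, and lower in both for 13, or 33.3%, where 28.6% were.

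With the replicate number as a block, again no collagen and no gene of all passed in limma. At an unadjusted p under 0.05 that fit held 7 collagens, or 17.9%, in Gadd45a minus Flag, where 8.66% of all genes passed. It held 0 in G39A minus Flag, where 2.87% passed, and 3, or 7.69%, in Gadd45a minus G39A, where 8.61% passed. With slide as a random block, 0 collagens passed, where 13 genes in all (0.0795%) passed in Gadd45a minus Flag, 3 (0.0183%) in G39A minus Flag and 0.0% in Gadd45a minus G39A. With the replicate block, the smallest adjusted p of a collagen was 0.482, for Col24a1, which was lower on Gadd45a than on Flag by -0.57 in replicate 2 and -0.48 in replicate 1. The second of these rests on a Gadd45a array not above background and was -0.18 with normexp. Col2a1 also had the same sign in both, at -0.29 and -0.49, as did Col11a1, at -0.70 and -0.33. Col7a1 was higher on Gadd45a than on G39A in both, by 0.36 and 0.46.

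**Figure D5:**
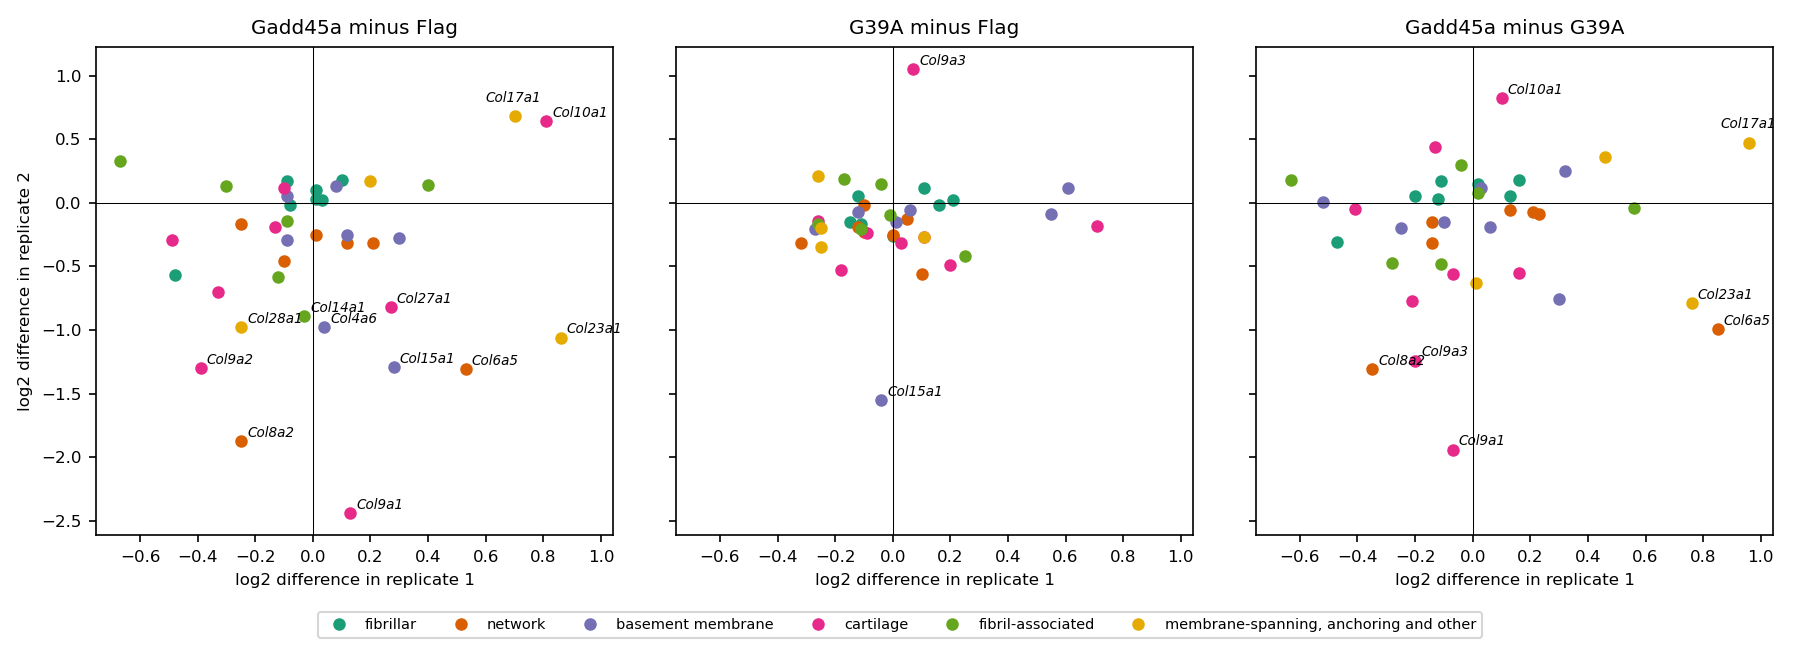
Log2 difference of each tested collagen gene between groups, within replicate 1 (horizontal axis) and within replicate 2 (vertical axis), coloured by class. In Gadd45a minus Flag, Col8a2 lies at -1.87 in replicate 2 and at -0.25 in replicate 1, where its Gadd45a array was not above background. Col9a1, Col9a2 and Col6a5 lie low in replicate 2 on a Gadd45a array not above background. Each point compares 1 array with 1 array.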

How the data were processed

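RNA of 6 samples was labelled with Cy3 and hybridised to 1-colour Agilent arrays. Agilent Feature Extraction 10.7 gave the intensity of each spot, per the submitters' processing notes, background-subtracted per the file headers and deposited without normalization between arrays. The authors' deposited table of log2 values follows its own arrays (lowest r 0.9989), with column medians of 6.17. It served as an alternative. Its other steps are not stated in the labels or headers.

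Control and outlier spots were left out, spots of a probe averaged, and log2 intensity was centred on the 75th percentile of its array. A probe was tested when well above background on both arrays of a group or all 3 of a replicate number, with an unmarked spot on every array (25393 probes, 16350 genes, each by its probe of highest mean signal). Coordinates of probes are mm9, per the file headers. Names and promoters came from RefSeq (GRCm38.p6), where 42 of 43 probe accessions matched.

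Differences were fitted with limma 3.58 in R 4.3 (lmFit, eBayes), replicate 2 minus replicate 1 with group as a covariate and groups without covariates, adjusted by Benjamini-Hochberg over all genes at 0.05. Fits were tested on simulated data. Same-numbered arrays deviated together (correlations 0.906 to 0.907), so the numbers pair the arrays. "At least" folds set the bright mean against the higher of the dim probe's signal and the array's lowest signal well above background.

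Every collagen name is accounted for, and list genes past the threshold were named up to 4 each way by size. Members and lists were chosen with earlier results of these data known. Alternatives were normexp background correction, quantile normalization, the deposited table, other filters, the mean of probes, leaving out each array, and blocks for replicate number and slide.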

Additional observations from a re-analysis of the deposited data

Results flagged for a closer look

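In 2 genes a difference between groups of at least 1.5-fold in each replicate pointed in opposite directions. Other collagens also changed direction, but by less than that in at least 1 replicate, such as Col15a1 in Gadd45a minus Flag, at -1.29 and 0.28. Col23a1 was lower on Gadd45a than on Flag in replicate 2, at -1.06 (log2), and higher in replicate 1, at 0.86. Against G39A, Col23a1 differed by -0.79 in replicate 2 and 0.76 in replicate 1. Col6a5 differed between Gadd45a and G39A by -0.99 in replicate 2, where the Gadd45a array was not above background, and by 0.85 in replicate 1. Its replicate 2 value is therefore no exact size and was -0.14 with normexp. Each value compares 1 array with 1 array, and whether the replicates differ in these effects was not tested.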

How the results depend on the processing

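Of the 28 collagens called between the replicate numbers, 23 kept direction and call under every alternative in which they were tested, and 5 (Col15a1, Col19a1, Col1a2, Col20a1 and Col6a4) lost the call under at least 1. The count called was 25 to 28 under the other normalizations, without a filter, with the mean of probes and with slide as a random block (added after seeing the data, without the group covariate), 19 of the 28 above background on all 6 arrays, and 26 to 29 with an array left out. Normexp kept these 23 calls but moved several sizes by over 1.5 times. Col10a1 moved to 1.41, Col9a3 to 0.44, Col17a1 to -0.48 and Col6a4 to -0.89. Outside the collagens, Glt25d2 moved to -2.66, Pou5f1 to -6.28 and Cdh1 to -2.68. Of collagens that did not pass, Col28a1 moved to -0.09, Col9a1 and Col9a2 to 0.23, and Col6a1 to 0.14. Col4a5 and Col4a6 moved to 0.05 and 0.06. The others are given beside their genes. Folds given as "at least" hold for the main scaling only. The median fell to 0.45 without a filter and 0.49 over genes above background on all 6 arrays. Signs turned only in genes that did not pass: Col4a1 was -0.05 by quantile normalization and -0.05 in the deposited table, and Col6a1 was -0.12 and -0.13 in the same settings. With arrays left out, Col6a1 ran from -0.02 (without either Flag array) to 0.20, Col4a5 from -0.17 (without either Flag array) to 0.14, and Col9a1 from -0.42 (without either Flag array), with -0.07 without either G39A array, to 0.86. Leaving out either array of a group gives the same value here by construction, since group is a covariate. The cause of these changes was not tested.

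Between groups, the replicate block left 0 calls in each comparison and medians of -0.11, -0.09 and -0.07, so it changed no call. Slide as a random block called 13 genes in Gadd45a minus Flag and 3 in G39A minus Flag, with 0 collagens. The median in Gadd45a minus G39A was -0.02 with normexp, -0.05 without a filter and -0.03 over genes above background on all 6 arrays. With an array left out, the median ran from -0.70 (without Flag replicate 1) to 0.32 (without Flag replicate 2) in Gadd45a minus Flag, -0.62 to 0.45 in G39A minus Flag and -0.50 to 0.24 in Gadd45a minus G39A. A group then rests on a lone array that is assumed to vary like the other groups. These fits hold no replicate term, so that lone array sets a single replicate number against both numbers of the other group. The difference between the replicate numbers thereby enters these medians, and their range does not measure how stable a group difference is. The number of arrays limits precision, and dim probes near background can carry surrogate values.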
